A study of Mus musculus with 675 samples.

Results

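Smooth muscle cells with a high level of Adra1d, the gene of the alpha1D-adrenergic receptor, were examined in single cells of the mouse aorta. The receptor responds to noradrenaline from sympathetic nerves and to circulating adrenaline. It couples through Gq to phospholipase C and calcium release, which leads to contraction, and in the rodent aorta it is known as a main alpha1 subtype behind that contraction. Its relatives Adra1a and Adra1b use the same pathway in other vessels.

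The cells were chosen by their own expression, in CPM, the counts of a gene per 1000000 counts of that cell. A cell was taken as smooth muscle at 1000 CPM or more of Myh11 (smooth muscle myosin heavy chain), 500 CPM or more of Cnn1 (calponin) and under 100 CPM of Cdh5 (the endothelial cadherin). It also had to have fewer than 2 of the 4 fibroblast genes Dcn, Lum, Serpinf1 and Pi16 at 100 CPM. Of 675 cells, 548 met this rule. Those with 100 CPM or more of Adra1d, about 160 cells, are called Adra1d-high cells here: 85 on a first plate and 74 on a second. They were compared with the smooth muscle cells that had 0 Adra1d counts (0-count cells), about 200 cells. Another 190 or so between the 2 classes are given as values only.

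All cells came from adult males of the strain C57BL/6 with the tissue label aorta, and the labels name no genotype, allele or treatment. The samples' labels give an age of 10 weeks, while the text on the series gives a range from 8 to 21 weeks. The dissociation protocol names the heart instead. Single cells were sorted by flow cytometry into multi-well plates, with a gate that the labels do not state, and sequenced with Smart-seq2, which reads full-length cDNA without molecular identifiers. Plate A (cell titles that begin with aorta_594s) held about 370 cells and plate B (aorta_912s) about 310 cells. The labels give pools of 2 mice, and 1 separate pool for each plate is assumed here. Counts rounded to 10 are given with the word about. Cells of a plate then share those mice, so the plate is the replicate (n = 2), and plate and mice cannot be told apart. P-values measure only the spread between these 2 plates.

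The other markers of smooth muscle were present in the Adra1d-high cells. Acta2 (smooth muscle actin), Tagln (transgelin), Myl9 (regulatory light chain), Mylk (the myosin light chain kinase), Smtn (smoothelin) and Lmod1 (leiomodin) were each at 100 CPM or more in all 85 Adra1d-high cells of plate A and all 74 of plate B. That level alone did not set smooth muscle apart. Outside the smooth muscle rule, Acta2 and Myl9 reached it in all 72 cells of plate A and all 55 of plate B. Tagln did in 55 of 72 and 55 of 55 cells. Smtn reached it in 36 and 46, Mylk in 22 and 36, and Lmod1 in 22 and 19. Acta2 summed to 6686 and 5609 CPM in the Adra1d-high cells of plates A and B, and to 2058 and 3685 CPM outside the rule. In the Adra1d-high cells Tagln summed to 2718 and 2539 CPM and Mylk to 2040 and 1955 CPM. The genes of the rule itself stood at 4450 and 3714 CPM for Myh11 and 2210 and 2323 CPM for Cnn1.

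Adra1d-high cells made up a similar part of the smooth muscle on each plate. They were 28.8% of the smooth muscle cells of plate A (85 cells, exact Clopper-Pearson 95% interval 23.7 to 34.4%) and 29.2% of those of plate B (74 cells, 23.7 to 35.3%). The 0-count cells took 42.7% on plate A (about 130 cells, 37 to 48.6%) and 28.5% on plate B (72 cells, 22.98 to 34.5%). The cells in between took 28.5% (84 cells) and 42.3% (about 110 cells). These intervals cover counting error only and take the cells of a plate as independent, although those cells share a pool of mice. The sort gate can also set such shares. Limits from read counts given here also cover counting error only, because several amplified reads can come from 1 molecule.

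Because Adra1d chose the cells, its values are a description. On plate A the 85 Adra1d-high cells ran from 101.76 CPM through a median of 206.2 CPM to 969 CPM. On plate B the 74 cells ran from 100.5 CPM through a median of 182.5 CPM to 467 CPM. The median cell held 66 Adra1d counts on plate A and 53.5 on plate B, and no Adra1d-high cell held fewer than 21. Smooth muscle cells between the classes had medians of 16.9 and 25.2 CPM. Levels ran through the threshold without a gap. The Adra1d-high cells nearest to it had 101.76 and 104.32 CPM on plate A and 100.50 and 100.93 CPM on plate B. The cells just below it had 97.57 and 96.75 CPM, and 98.10 and 96.20 CPM. On plate A, 7 smooth muscle cells lay between 90 and 110 CPM, and on plate B, 10 did. The threshold therefore cuts through a range of levels without a gap, and whether these levels form separate groups was not tested. In the 0-count cells, 3 counts at the median depth correspond to 10.6 CPM on plate A and 10.7 CPM on plate B, so a 0 count limits Adra1d to about that level in a typical cell.

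**Figure D1:**
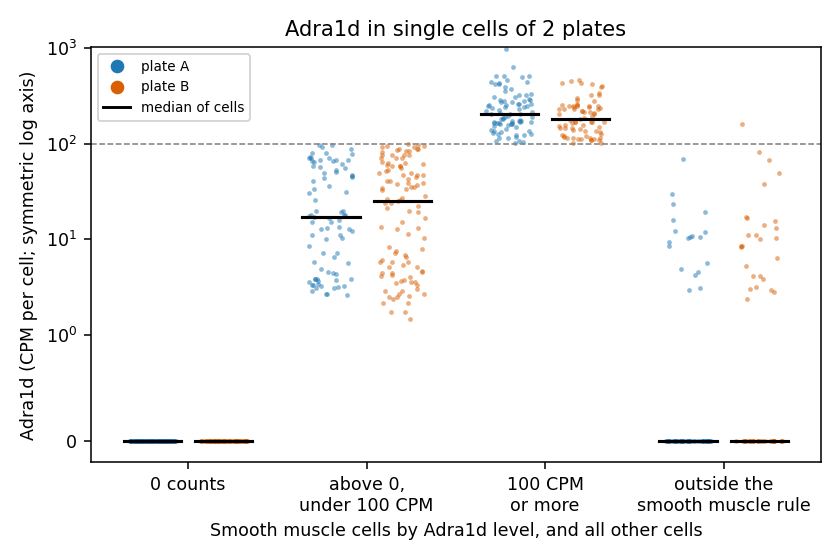
Adra1d in each cell, in CPM on a symmetric log axis, for smooth muscle cells with 0 counts, above 0 and under 100 CPM, and 100 CPM or more, and for all cells outside the smooth muscle rule. Points are cells, black lines are medians and the dashed line is the 100 CPM threshold; the Adra1d-high cells run from 101.76 to 969 CPM on plate A and from 100.5 to 467 CPM on plate B, with no gap at the threshold.

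Depth separated the classes slightly. The median total was 304887 counts in the Adra1d-high cells and 283550 in the 0-count cells of plate A, and 333680 and 281439 on plate B. A median cell had counts of 5427 genes in the Adra1d-high and 5258 in the 0-count class of plate A, and of 6292.5 and 5900 genes on plate B. Mitochondrial genes took a median of 1.88% of the counts in the Adra1d-high and 2.00% in the 0-count cells of plate A, and 1.73% and 1.90% on plate B. The smooth muscle cells of each plate were also put in order of total count and divided into 4 bins of 73 or 74 cells on plate A and 63 or 64 on plate B. From the shallowest to the deepest bin of plate A, 23, 18, 20 and 24 cells were Adra1d-high (31.1, 24.7, 27.03 and 32.4%) and 38, 34, 28 and 26 were 0-count cells. On plate B, 21, 16, 18 and 19 cells were Adra1d-high (33.3, 25.4, 28.6 and 29.7%) and 23, 23, 16 and 10 were 0-count cells. The Adra1d-high share thus had no steady course, while the share of 0-count cells went from 51.4% in the shallowest to 35.1% in the deepest bin of plate A and from 36.5 to 15.6% on plate B. The part of this depth difference in the comparisons below was not tested as a cause; fits on cells of 200000 counts or more and on cells thinned to 50000 counts each are given with the alternatives.

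**Figure D2:**
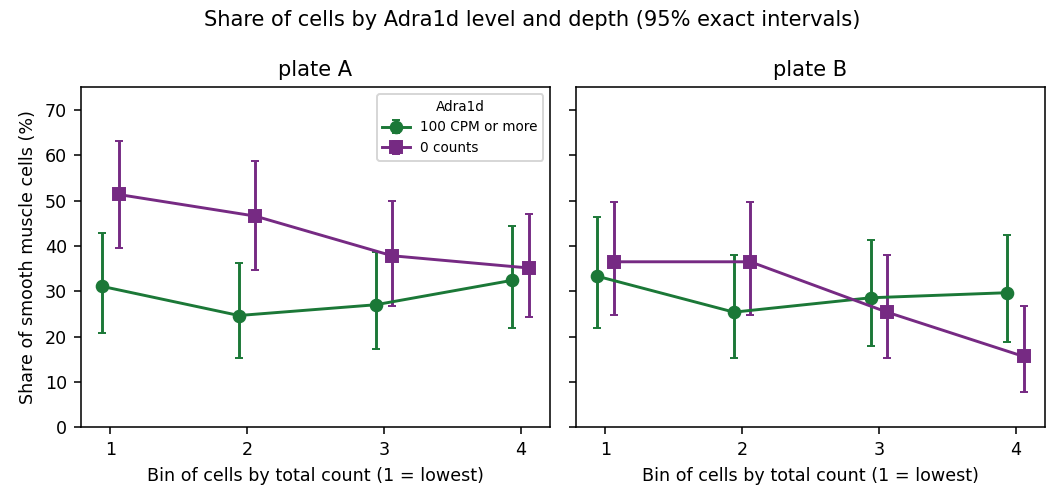
Share of smooth muscle cells, in percent, that are Adra1d-high (green circles) or have 0 Adra1d counts (purple squares), in 4 bins of cells in order of total count, on each plate. Bars are exact 95% intervals; the Adra1d-high share stays between 24.7 and 33.3% in all bins, and the 0-count share is lowest in the deepest bin of both plates.

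The position on the plate gave no common direction. On plate A, 23.3% of the smooth muscle cells in columns 1 to 12 and 35.3% of those in columns 13 to 24 were Adra1d-high. On plate B the shares were 33.3 and 25.9%, the opposite order. Between rows A to H and rows I to P the shares were 26.6 and 30.9% on plate A and 30.9 and 27.2% on plate B.

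Outside the smooth muscle rule, 100 CPM of Adra1d was reached by 0 of 72 cells of plate A and 1 of 55 cells of plate B. With every cell thinned to 50000 counts, which left out no cell, 45.4% of smooth muscle cells of plate A and 54.6% of plate B kept an Adra1d count. Among cells with the fibroblast genes the share was 6.52% of 46 cells and 21.1% of 38 cells, and among Cdh5-positive cells 6.25% of 16 and 11.1% of 9. Among the other cells, which had too little Myh11 or Cnn1, it was 20% of 10 and 37.5% of 8, and the 1 outside cell at 100 CPM was of this kind. Unthinned, 57.3 and 71.5% of the smooth muscle cells of plates A and B had a count, against 23.9 and 44.7% of the cells with fibroblast genes. Median depths were 294814 and 327302 counts in smooth muscle cells and 159618 and 154888 in cells with fibroblast genes. Cells outside the rule also held smooth muscle transcripts, as given above for Acta2 and Myl9, and their part in these shares was not tested.

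Adra1d lies on the minus strand of chromosome 2 from 131545850 to 131562283 (GRCm38, GENCODE M21). The noncoding gene Gm14285 lies on the opposite strand from 131561614 to 131563179, and the exons of both share 7.74% of the 1899 exonic bases of Adra1d and 38.7% of the 380 of Gm14285. Neither the labels nor the processing notes state whether counting used the strand, so reads of these genes cannot be told apart in the shared bases. Gm14285 had a count in 59 of 85 Adra1d-high cells (69.4%) and 3 of the 0-count cells (2.38%) of plate A, and in 65 of 74 (87.8%) and 1 of 72 (1.39%) on plate B. Its sums were 21.1 against 0.61 CPM and 20.4 against 0.23 CPM. Gm14285 met the naming rule below and is listed there with this limit.

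The question of the main comparison was whether any other gene differed between Adra1d-high and 0-count cells of the same plate. The counts of the cells of each class were added up within each plate, and the 4 resulting totals ran from 21339783 to 36020035 counts. After filtering, 15210 genes were tested with edgeR's quasi-likelihood test, leaving out the 8 genes of the rule. At a Benjamini-Hochberg adjusted p under 0.05, 0 genes were higher and 0 lower (0% of those tested). At an unadjusted p under 0.05 there were 683 genes, 4.49% of those tested. The smallest adjusted p was 0.3, for Gpx3. DESeq2 called 13 genes higher (0.0855% of those tested) and 17 lower (0.112%) on the same sums, and limma on the mean CPM per cell called 0, with 948 genes at an unadjusted p under 0.05. Of the 30 DESeq2 calls, 22 had over 25% of the counts of the higher class in 1 cell. The sums leave 1 residual degree of freedom for the spread between plates. The values that follow are therefore differences that did not pass the test, except where another tool is named. For some genes of the lists the plates gave opposite directions.

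Among genes at 10 CPM or more in the higher class on both plates, with the same direction on both and no cell with over 25% of that class's counts, 4775 were eligible to be named. The 10 of lowest p in each direction were taken, a choice made from the same contrast. The 10 genes higher in Adra1d-high cells were Foxl1, Sost, Gm14285, Bod1, Zfp703, Abcf1, Ascc2, Crispld1, Enpp2 and Prss23. Of the 10 lower ones, 9 are described here: C1s1, Mfap4, Rit1, Pcolce2, Oaf, Adam19, Rpf2, Stk19 and Btg2.

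Sost encodes sclerostin, a secreted inhibitor of Wnt signalling known from bone and also made by vascular smooth muscle. It was the most abundant of the higher genes. In the 85 Adra1d-high cells of plate A it ran from 12.4 CPM through a median of 1023 to 3788 CPM, and in the 0-count cells from 2.41 through 694 to 3446 CPM. On plate B the 74 Adra1d-high cells ran from 4.53 through 920 to 2196 CPM and the 72 0-count cells from 3.93 through 484 to 1742 CPM. The ranges of single cells thus overlapped almost entirely, with the median of the Adra1d-high cells higher on both plates. The sums were 1277 against 828 CPM on plate A and 912.4 against 593.6 CPM on plate B, with the cells in between at 952 and 769 CPM. The log2 difference was 0.62 ± 0.08 (SE, n = 2 plates; edgeR adjusted p = 0.878, DESeq2 adjusted p = 3.62e-06). Sost lies on chromosome 11 from 101962458 to 101967015. It was at 100 CPM or more in 94.1 and 95.9% of the Adra1d-high cells of plates A and B, in 88.9 and 83.3% of the 0-count cells, and in 5.56 and 29.1% of the cells outside the smooth muscle rule.

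Foxl1 encodes a forkhead transcription factor, known best from the mesenchyme under the gut epithelium. It was detected in few cells, and more often in Adra1d-high ones. A count was found in 15 of 85 Adra1d-high cells (17.6%) and 5 of the 0-count cells (3.97%) of plate A, and in 11 of 74 (14.9%) and 5 of 72 (6.94%) on plate B. At 100 CPM there were 6 and 5 Adra1d-high cells on plates A and B, 1 and 3 cells in between, and 0 of the 0-count cells. The highest cell had 505 CPM on plate A and 250.8 CPM on plate B, against 26.01 and 5.29 CPM among 0-count cells. The sums were 25.6 against 0.36 CPM on plate A and 15.03 against 0.28 CPM on plate B, with 5.55 and 5.57 CPM in between. The log2 difference was 5.94 ± 0.76 (SE, n = 2 plates; edgeR adjusted p = 0.878, DESeq2 adjusted p = 7.91e-11). It rests on 19 counts in the 0-count and 1026 counts in the Adra1d-high cells, and 1 Adra1d-high cell gave 18.2% of the latter. Most Adra1d-high cells had no Foxl1 count. Foxl1 lies on chromosome 8 from 121127940 to 121130644.

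**Figure D3:**
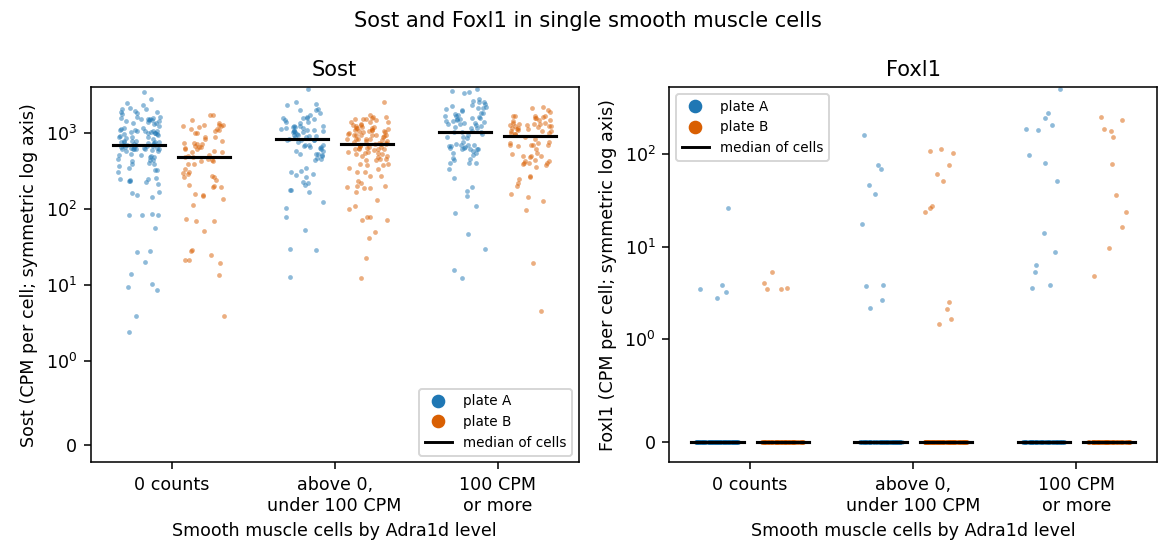
Sost (left) and Foxl1 (right) per smooth muscle cell, in CPM on a symmetric log axis, by Adra1d level and plate; points are cells and black lines medians. Sost medians are 694 and 484 CPM in 0-count cells and 1023 and 920 CPM in Adra1d-high cells, and Foxl1 is at 0 in most cells of every class, with its 11 Adra1d-high cells at 100 CPM or more at the top right.

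The other higher genes were expressed at lower levels and in part of the cells. Bod1, which acts in chromosome biorientation at mitosis, summed to 133.8 against 62.3 CPM on plate A and 91.9 against 45.3 CPM on plate B (log2 difference 1.06 ± 0.20, SE). It was the remaining gene of the 20 that DESeq2 called (adjusted p = 0.0199), beside Foxl1, Sost and Gm14285. Zfp703, a zinc finger corepressor, stood at 157.3 against 95.1 CPM and 112.4 against 57.03 CPM. Abcf1, an ATP-binding protein linked to translation initiation, stood at 117.5 against 65.7 CPM and 104.8 against 52.7 CPM. Ascc2, a subunit of the activating signal cointegrator complex, stood at 39.9 against 13.3 CPM and 31.6 against 7.26 CPM. Crispld1, a secreted cysteine-rich protein, was at 63.5 against 27.1 CPM and 54.97 against 21.8 CPM. Enpp2, the enzyme autotaxin that makes lysophosphatidic acid, was at 62.1 against 24.8 CPM and 34.3 against 13.3 CPM. Prss23, a secreted serine protease, was at 647 against 496 CPM and 690 against 517 CPM. On each plate every one of these 7 genes was higher in the sum of Adra1d-high cells, as the naming rule asks, and none passed edgeR's threshold. For Enpp2, 1 cell gave 21.1% of the counts of the Adra1d-high cells. Exons of Zfp703, Crispld1, Enpp2 and Prss23 overlap genes on the other strand, for Prss23 over 22.9% of its exonic bases, so their counts can hold reads of the partner.

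The lower genes had the smaller sum in Adra1d-high cells on each plate, as the naming rule asks, and edgeR called none. C1s1, a complement protease of the classical pathway, summed to 13 against 31.7 CPM on plate A and 17.9 against 55.6 CPM on plate B (log2 difference −1.47 ± 0.35, SE; edgeR adjusted p = 1.0). Mfap4, a microfibril-associated glycoprotein of elastic fibres, stood at 739 against 1056 CPM and 1206 against 1422 CPM. Pcolce2, which enhances procollagen processing, stood at 83.9 against 137.6 CPM and 86.5 against 133.3 CPM. Adam19, a membrane metalloprotease, was at 9.33 against 29.5 CPM and 11.6 against 31.7 CPM. Btg2, an antiproliferative immediate early gene, was at 346.3 against 436 CPM and 221.4 against 315.8 CPM. Rit1, a small GTPase, was at 97.4 against 163.2 CPM and 134.4 against 190 CPM. The remaining genes were Oaf, Rpf2 and Stk19, with log2 differences of −1.24, −1.47 and −1.60 (SE 0.33, 0.40 and 0.44). Exons of C1s1, Adam19 and Mfap4 also overlap genes on the opposite strand, for C1s1 over 18.4% of its exonic bases.

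**Figure D4:**
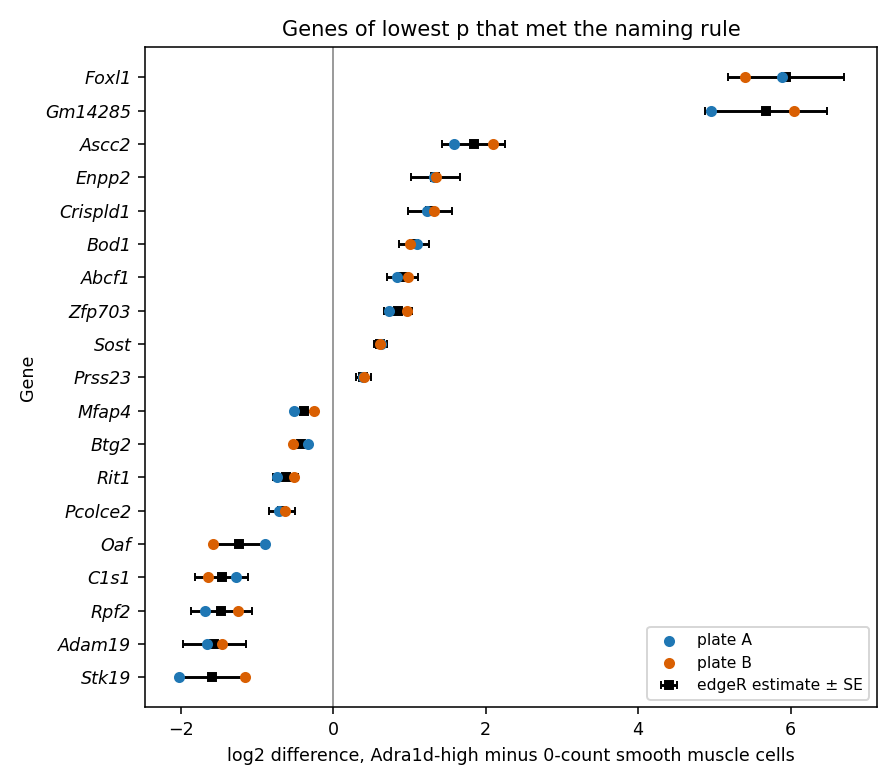
Log2 difference of the summed counts, Adra1d-high minus 0-count cells, for 19 of the 20 genes of lowest p: black squares with bars are the edgeR estimate ± SE, blue and orange points the difference on plate A and plate B. The genes were selected on this contrast, which also favours agreement of the plates, so distance from 0 and agreement are a description. Sost, Prss23, Bod1, Crispld1 and Enpp2 are among those with nearly the same difference on both plates. None of the genes passed edgeR's threshold.

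The Adra1d-high cells were also divided at 200 CPM of Adra1d, a division made after the data were seen, into 40 and 45 cells on plate A and 39 and 35 cells on plate B. Sost stood at 1292 CPM in those under 200 CPM and 1263 CPM in those above on plate A, and at 872 and 961 CPM on plate B. The plates thus gave opposite orders of the 2 parts. The genes were chosen on the sum of these same cells, so their values in the parts are a description and no further support. Foxl1 was higher in the part with less Adra1d, at 33.9 against 17.9 CPM on plate A and 21.9 against 6.74 CPM on plate B. Prss23 stood at 518 and 767 CPM on plate A and 632 and 761 CPM on plate B, higher in the part with more Adra1d. Mfap4 stood at 1429 CPM in the part with less Adra1d of plate B, beside 1422 CPM in the 0-count cells.

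The other adrenergic receptor genes described here were at low levels in both classes. Per kilobase of exon, the summed level in Adra1d-high cells, as the mean of the plates, was 1.10 CPM for Adrb1 (the cardiac beta1 receptor) and 0.77 CPM for Adra1b (the alpha1B receptor), beside 118.3 CPM for Adra1d, whose level the rule set. In the 0-count cells, where Adra1d is 0 by the rule, it was 0.36 CPM for Adrb1 and 1.89 CPM for Adra1b. Adra1b summed to 3.40 CPM in the Adra1d-high and 6.33 CPM in the 0-count cells of plate A, and to 1.79 and 6.42 CPM on plate B (log2 difference −1.37 ± 0.92, SE). It reached 100 CPM in 2 Adra1d-high and 6 0-count cells, and the other cells of both classes had less. Adra1a, the alpha1A receptor, had 0 counts in both classes of both plates. Adra2b was at 0.04 and 0.04 CPM in Adra1d-high cells and 1.86 and 4.12 CPM in 0-count cells, where 1 cell gave 54.8% of its counts. Adrb1 stood at 3.32 against 2.42 CPM and 4.14 against 0.05 CPM, and 1 cell gave 68.2% of the counts of the 0-count cells. Adra2a, Adra2c and Adrb3 had too few counts to be tested.

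No gene listed as acting with or after the receptor was called by edgeR or DESeq2. Counts of calls in the lists are edgeR's, and DESeq2 called 3 list members in all, Egr2, Vtn and Smoc2, named below. The lists of such genes were read by counts and medians beside those of all genes tested, whose median log2 difference was −0.01 with a median SE of 0.48. Apart from markers of other cell types, 13 lists had a median, among them those of matrix, Hox and immediate early genes. For 9 of these 13 the medians had opposite signs on the 2 plates. Among receptor kinases, arrestins, syntrophin and dystrophin partners and enzymes that remove catecholamines, 0 of 17 tested genes were called (median 0.19). The medians of the log2 CPM differences within plates A and B, another measure than edgeR's estimate, were −0.18 and 0.08. Arrb1, the arrestin beta-arrestin-1, had an unadjusted p under 0.05, at 7.65 against 22.6 CPM on plate A and 6.66 against 16.2 CPM on plate B. Of the abundant partners, Dmd (dystrophin) stood at 515 against 510 CPM and 419 against 364.5 CPM, and Utrn (utrophin) at 290.8 against 336.1 CPM and 269.1 against 177.4 CPM.

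Among Gq subunits, phospholipases, IP3 receptors, protein kinase C and store-operated entry, 0 of 32 tested genes were called (median −0.08). Plcb4, a Gq-activated phospholipase C, stood at 410 against 531 CPM on plate A and 433 against 442 CPM on plate B. Stim2, a calcium sensor of the store, was the member with an unadjusted p under 0.05, at 8.98 against 42.5 CPM and 6.87 against 13.1 CPM. Among the RGS proteins, which shorten G protein signals, 0 of 12 were called (median 0.04). Rgs5 stood at 813 against 519 CPM on plate A and 329.2 against 272.96 CPM on plate B (log2 difference 0.45 ± 0.13, SE), while Rgs4 stood at 176.2 against 193.4 CPM and 172.6 against 155.1 CPM.

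Receptors for other constrictors gave 0 calls among 17 tested genes (median −0.01). Tbxa2r, the thromboxane receptor, stood at 131.3 against 121.99 CPM on plate A and 116.1 against 107.03 CPM on plate B. Npy1r, a receptor for neuropeptide Y, which sympathetic nerves release with noradrenaline, stood at 173.9 against 129.6 CPM and 216.8 against 235.4 CPM, in opposite directions. F2r, the thrombin receptor, stood at 71.5 against 94.97 CPM and 82.8 against 100.4 CPM. Ednrb, an endothelin receptor, had an unadjusted p under 0.05 at levels of 0.12 against 1.17 CPM and 0.12 against 1.36 CPM. Relaxant receptors and cyclic nucleotide enzymes gave 0 calls among 25 (median 0.03), and none had an unadjusted p under 0.05. Ramp1, part of the receptor for the vasodilator peptide CGRP, stood at 624 against 591 CPM and 579 against 617 CPM.

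Of 35 tested contractile genes 0 were called, with a median log2 difference of 0.01 and a median SE of 0.09. Acta2 stood at 6686 against 7009 CPM on plate A and 5609 against 6275 CPM on plate B (log2 difference −0.12 ± 0.06, SE). Myl9 stood at 3931 against 4115 CPM and 3491 against 3868 CPM, and Flna (filamin A) at 3891 against 4038 CPM and 3367 against 3069 CPM. In calcium sensitisation 0 of 19 were called (median −0.04). There Arhgef17, a RhoA activator, stood at 296.8 against 262.9 CPM and 478 against 302.3 CPM, and Ppp1r14a, the myosin phosphatase inhibitor CPI-17, at 421 against 494 CPM and 586 against 698 CPM.

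Potassium and related channels gave 0 calls among 22 tested genes (median 0.08), and 4 of them (18.2%, against 4.49% of all genes tested) had an unadjusted p under 0.05, all higher in Adra1d-high cells. Kcnj8, the pore of the vascular ATP-sensitive potassium channel and also a member of the pericyte list below, stood at 129.2 against 61.05 CPM on plate A and 96.5 against 67.2 CPM on plate B (log2 difference 0.80 ± 0.23, SE). Abcc9, its regulatory subunit, stood at 216.2 against 287.8 CPM and 278.2 against 292.7 CPM, in the other direction. Ano1, a calcium-activated chloride channel, stood at 180.2 against 149.8 CPM and 158.99 against 106.4 CPM. Kcnab1, an auxiliary subunit of voltage-gated channels, stood at 308.2 against 207.2 CPM and 292.95 against 256.9 CPM. The remaining one, Kcnj12, was at 1.21 against 0.19 CPM and 2.80 against 0.14 CPM.

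Transcription factors of muscle gave 0 calls among 28 (median −0.05). Myocd, the myocardin coactivator of contractile genes, stood at 437 against 435 CPM and 828 against 802 CPM. Hox and other positional genes gave 0 calls among 27 (median −0.06). Among genes of elastic fibres and matrix 0 of 59 were called (median 0.11), with 3 higher and 5 lower at an unadjusted p under 0.05 (13.6% in all). Eln (elastin) stood at 2850 against 2700 CPM and 2087 against 1847 CPM, and Bgn (biglycan) at 5150 against 5007 CPM and 4797 against 5042 CPM. Of the lower ones, Ogn, a leucine-rich proteoglycan, stood at 1067 against 1159 CPM and 1213 against 1498 CPM. Aspn, another, stood at 33.4 against 64.1 CPM and 61.96 against 91.5 CPM. Of the higher ones, Nid1 of the basement membrane stood at 30.6 against 20.2 CPM and 34.7 against 5.95 CPM. The collagen gene Col5a1 stood at 248.3 against 218.9 CPM and 158.6 against 101.1 CPM. Genes described for smooth muscle that leaves the contractile state gave 0 calls among 25 (median −0.04). At an unadjusted p under 0.05, 1 was higher and 3 were lower (16% in all). Igfbp2 and Igfbp5, binding proteins of insulin-like growth factors, were in the lower direction, at 39.01 against 55.4 CPM and 25.1 against 110.4 CPM, and 28.9 against 94.3 CPM and 22.8 against 43.7 CPM. Immediate early genes, which dissociation can induce, gave 0 edgeR calls among 30 (median −0.13, −0.05 on plate A and −0.34 on plate B), and DESeq2 called Egr2 lower (adjusted p = 6.04e-08), at 0.04 against 3.47 CPM and 0.12 against 32.5 CPM. Fos stood at 1057 against 1103 CPM and 677 against 934 CPM, and Nr4a1 at 236.9 against 287.3 CPM and 456 against 574 CPM.

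**Figure D5:**
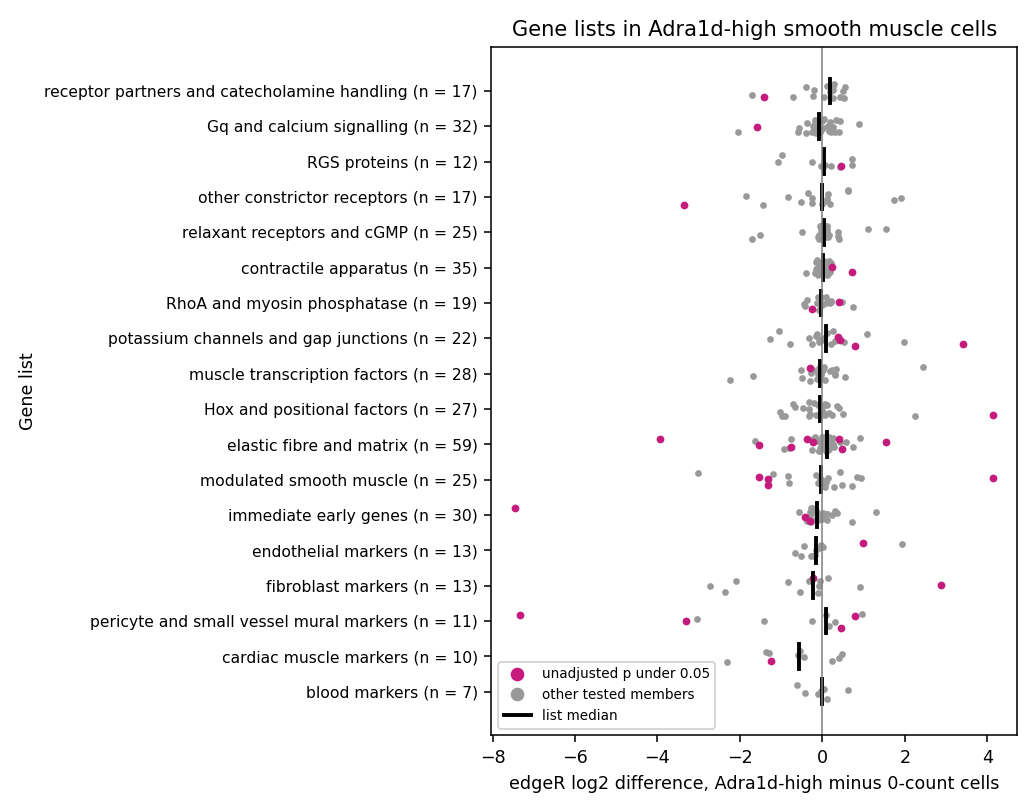
edgeR log2 difference, Adra1d-high minus 0-count cells, of every tested member of the lists with at least 5 tested genes; black bars are list medians and magenta points members with an unadjusted p under 0.05. No member passed edgeR's adjusted threshold, and the medians lie between −0.57 (cardiac muscle markers) and 0.19 (receptor partners).

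Markers of other cell types were compared in the same sums. The 13 endothelial markers summed to 320.6 CPM in Adra1d-high and 289.3 CPM in 0-count cells of plate A and to 263.2 and 217.4 CPM on plate B, and all 13 had counts in each class. Esam, an adhesion molecule of cell junctions, was the member with an unadjusted p under 0.05, at 104.6 against 64.1 CPM and 85.4 against 34.7 CPM. The endothelial sums move with Esam and were not a common rise of the list. Its median log2 difference was −0.16 (−0.10 on plate A and −0.29 on plate B), and 5 of the 13 had the same sign on both plates. The 11 markers of pericytes and small-vessel mural cells summed to 2000 against 1696 CPM and 1465 against 1229 CPM, again with counts of all 11. Rgs5 and Kcnj8 above belong to this list, so this sum moves with them, and its part in those values was not tested. Vtn and Ndufa4l2 of the same list went the other way, at 0.04 against 26.5 CPM and 0.24 against 18.1 CPM for Vtn and 0.47 against 5.22 CPM and 0.73 against 6.51 CPM for Ndufa4l2. DESeq2 called Vtn lower (adjusted p = 1.83e-11), with 70.4% of the counts of the 0-count cells in 1 cell. The 14 fibroblast markers summed to 2145 against 2358 CPM and 2463 against 2376 CPM, mostly from Gsn and Col1a1. DESeq2 called Smoc2 of this list higher (adjusted p = 0.0121), at 34.4 against 11.9 CPM and 27.5 against 1.31 CPM, with 25.1% of the counts of the Adra1d-high cells in 1 cell. The 14 cardiac markers summed to 110.3 against 107.1 CPM and 155.9 against 213.5 CPM, with Myl2 and Nppa at 0 in every class. The 13 immune markers summed to 25.7 against 13.5 CPM and 2.27 against 13.6 CPM, with Cd3e and Cd79a at 0 in every class. The 10 nerve and glial markers summed to 2.97 against 4.66 CPM and 1.22 against 0.75 CPM, with Th and Dbh, enzymes of noradrenaline synthesis, at 0 throughout. The 8 blood markers summed to 44.99 against 11.1 CPM and 14.5 against 27.4 CPM. The 8 skeletal muscle markers summed to 45.2 against 46.5 CPM and 21.0 against 10.9 CPM, and the 8 fat markers to 9.92 against 1.19 CPM and 11.2 against 10.2 CPM.

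Cells with genes that mark other subsets of aortic smooth muscle were found in each Adra1d class. Tnnt2, cardiac troponin T, was at 100 CPM or more in 9.41% of Adra1d-high and 4.76% of 0-count cells of plate A and in 18.9 and 19.4% on plate B. P2rx1, an ATP-gated channel that also mediates sympathetic constriction, reached that level in 15.3 and 13.5% of cells on plate A and 21.6 and 13.9% on plate B. For Wnt16, a Wnt ligand, the shares were 15.3 and 16.7%, and 20.3 and 19.4%. For Klhl30 they were 16.5 and 19.05%, and 27.03 and 18.1%. The smooth muscle cells in between had the highest Klhl30 shares of the 3 classes, at 25% on plate A and 38.3% on plate B. On plate A the exact 95% intervals overlapped, at 16.2 to 35.6% against 12.6 to 27% in the 0-count cells. On plate B they were 29.1 to 48.2% against 9.98 to 28.9%. Intervals are printed for this gene only. Their shares were 5.95 and 22.4% for Tnnt2, 9.52 and 8.41% for P2rx1 and 21.4 and 23.4% for Wnt16. These intervals take the cells of 1 plate as independent, and differences between the classes were not tested over the 2 plates.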

How the data were processed

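The authors deposited raw read counts, with 46517 genes in rows and the cells in columns. Programs named in the submitters' processing notes are Bowtie, Bowtie2, bcl2fastq, Subread and featureCounts, without versions, and the genome is GRCm38 (mm10). Symbols came from GENCODE M21; 512 identifiers without one held 0.217% of the counts. No 2 cells had identical values, and no doublet caller was run. The members and the gene lists were chosen with earlier results of these data known.

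Counts were summed per plate and class and fitted in edgeR 4.0.16 (R 4.3.3) with filterByExpr, TMM, plate as block and the quasi-likelihood test, after a check on simulated data. Classes of a plate are taken to share 1 pool of mice, which is the pairing. The plate difference correlated with r = 0.25 between the classes across 15210 genes, which are not independent replicates. Alternatives were DESeq2 1.42.0, limma 3.58.1 on log2(mean CPM + 1), other size factors, filters, Adra1d levels, comparison cells, depths and purity (under 100 CPM of Pecam1, Kdr, Pdgfra, Ptprc and Rgs5). Named were, besides the 20 genes of lowest p, the adrenergic receptors, the rule's genes, 4 subset markers and up to 3 abundant members of each of 23 lists, as far as the text has room; a few genes are not reported here. List members with an unadjusted p under 0.05, and Gpx3, Vtn and Egr2, were chosen after their values were seen. Of 532 list entries, 2 were not matched by symbol.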

Additional observations from a re-analysis of the deposited data

Results flagged for a closer look

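Adra1d counts also appeared in cells that no comparison used. Of the cells outside the smooth muscle rule, 3 of 72 on plate A (4.17%) and 4 of 55 on plate B (7.27%) had over 3 Adra1d counts, which is a signal outside the main measurement and above the limit that a count of 0 allows. At least 1 count was found in 26.39 and 49.09% of them, most of these cells at or under that limit. The median was 0 CPM on both plates, and the highest cells had 69.7 and 159.9 CPM.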

How the results depend on the processing

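The 4 sums give 2 plates a class, which limits every test here. Without the replicate block, and so without the pairing by plate, 0 genes were called and 418 had an unadjusted p under 0.05, against 683 with it, and the median log2 difference of other constrictor receptors was −0.34. DESeq2 called 13 genes higher and 17 lower, and with cells thinned to 50000 counts 1 gene was lower, Gpx3; the cause was not tested. Counts of calls were 0 under the other 9 settings. The 20 genes of lowest p, Gm14285 among them, kept their sign under every setting run, on cells that largely overlap. They also kept it with either plate left out. The naming rule had asked for the same direction on both plates, so that is no further support. Of list members with an unadjusted p under 0.05, Nr4a1 reversed, to 0.102 with purer cells. List medians that moved were, at 50 CPM of Adra1d, −0.01 for receptor partners and −0.33 for other constrictor receptors (−0.16 in limma). At 200 CPM they were −0.36 for RGS proteins, 0.09 for relaxant receptors, 0.04 for contractile genes, 0.13 for Hox genes and −0.12 for modulated genes. Against all cells under 100 CPM they were 0.01 for Gq signalling, 0.09 for relaxant receptors, 0.03 for contractile and 0.02 for modulated genes. With purer cells they were −0.02 for contractile genes, 0.21 for potassium channels, 0.07 for muscle transcription factors and −0.17 for modulated genes. Without a filter the contractile median was −0.01, in deeper cells that of relaxant receptors 0.10, and that of Hox genes 0.06 in thinned cells and 0.07 in limma. The values with 1 plate left out are the other plate's own differences of log2 CPM and no new edgeR fit. The edgeR median therefore need not lie between them, as for receptor partners (0.19). Leaving out 1 plate, medians ran from −0.18 to 0.08 for receptor partners, −0.09 to 0.03 for Gq signalling, −0.20 to 0.19 for RGS proteins, −0.07 to 0.11 for other constrictor receptors, 0.00 to 0.05 for relaxant receptors, −0.03 to −0.00 for contractile genes, −0.01 to 0.04 for RhoA and phosphatase genes, −0.04 to 0.14 for potassium channels, −0.08 to 0.07 for muscle transcription factors, −0.01 to 0.16 for Hox genes, −0.04 to 0.24 for elastic fibre and matrix genes, −0.11 to −0.05 for modulated genes and −0.34 to −0.05 for immediate early genes.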

Other observations

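Gpx3, a secreted glutathione peroxidase, had the lowest p in edgeR and stood at 4.37 CPM in Adra1d-high and 70.4 CPM in 0-count cells of plate A and at 3.62 and 66.8 CPM on plate B. Its level rested on few cells: 2 and 1 of the 0-count cells reached 100 CPM, with the highest at 4067 and 4797 CPM, and 1 cell gave 36.2% of their counts. A Gpx3 count was found in 31.8% of Adra1d-high and 32.5% of 0-count cells of plate A and in 51.4 and 55.6% on plate B, so the classes hardly differed in how many cells held one. It passed the threshold in thinned cells (edgeR adjusted p = 0.0115) and in DESeq2.

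Vtn (vitronectin) and Egr2 (an immediate early transcription factor) also drew most of their counts in 0-count cells from 1 cell, which gave 70.4% of them for Vtn and 62.3% for Egr2. Unlike Gpx3, they were found in fewer Adra1d-high cells. A Vtn count was found in 1.18% of Adra1d-high and 7.94% of 0-count cells of plate A and in 4.05 and 13.9% on plate B. An Egr2 count was found in 1.18 and 3.97% on plate A and in 4.05 and 15.3% on plate B. Egr2 summed to 0.04 against 3.47 CPM and 0.12 against 32.5 CPM. DESeq2 called both (adjusted p = 1.83e-11 and 6.04e-08), and edgeR neither (adjusted p = 0.878 for each).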
